A study of Homo sapiens with 12 samples.

Results

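DEAD box (DDX) and DEAH box (DHX) RNA helicases were read out in HT29 cells, an established human colorectal cancer line, after silencing of the nuclear receptor LRH-1 (NR5A2). The set held every gene whose platform symbol began with DDX or DHX. It came to 49 genes, 35 DDX and 14 DHX, of 7331 genes with a named probe in the authors' filtered table. One probe stood for each gene, the one with the highest mean over the 12 arrays, and the 49 genes had 69 probes of the 16381 in the table. RNA was profiled on expression beadchips in 3 groups of 4 biological replicates, and all cells had been reverse transfected with a lipid reagent at 5 nM siRNA and collected after 24 h. The control group, siLUC, received a non-targeting siRNA against luciferase. The other groups, siLRH-1 #1 and siLRH-1 #2, each received a different siRNA against LRH-1. All arrays came from this one line, no untransfected cells were profiled, and the cell number and the RNA per cell cannot be told apart in such bulk samples.

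These enzymes use ATP to unwind RNA or to strip proteins from it, and they are named after the amino acids of a conserved motif. DEAD box enzymes pry apart short duplexes locally, whereas many DEAH box enzymes travel along a strand. Between them they drive the steps of the spliceosome, build ribosomal subunits in the nucleolus, and carry mRNA through export, translation and decay. LRH-1 is a DNA-binding receptor of the gut, liver and pancreas that recognises an extended half-site as a monomer. The comparisons ask which of these helicases changed in mRNA level with each LRH-1 siRNA, and whether the siRNAs differed.

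NR5A2 had no named probe in the table used here and was not analysed, so the knockdown was not checked. Of 16 colorectal epithelial markers, 13 were listed and 12 of those lay above the median probe. Means over the 13 ran from 6.26 to 13.44 on the log2 scale. Of 17 markers of leukocytes, fibroblasts, endothelium and hepatocytes, 7 were listed and 2 lay above the median probe, at 5.90 to 7.65 over the 7. Array medians ran from 6.56 to 6.57. The siLRH-1 #2 replicate 2 array stood apart with 50 probes at least 0.5 above every other array, against 0 or 1 on each other array, and 0 of the 50 belonged to a helicase of the set. Among the 49 helicases, 42 had a mean above that of the median probe (6.55). The 7 dimmer ones were DDX6, DDX20, DDX25, DDX43, DDX53, DDX60 and DDX60L.

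RefSeq promoters (GRCh38.p14) were matched for 46 of the 49 genes, and DDX49, DDX52 and DHX33 had none in the table. The 250 bases before each start were searched on both strands. A fixed form of the extended LRH-1 element, CAAGGTCA, was in 0 of the 46, against 0.827% of the promoters of 5805 array genes and 1.17% of all 27305 promoters. At so low a share, 0 of 46 does not set the helicases apart, and variant forms of the element were not searched. The inner half-site AGGTCA, which CAAGGTCA contains, was in 4 of the 46 (8.70%), those of DDX42, DDX47, DDX54 and DHX32, against 9.37% of array genes and 12.1% of all promoters. The ETS core CCGGAAG was in 14 of the 46 (30.4%), against 14.3% of array genes and 8.82% of all promoters. The E-box CACGTG was in 7 (15.2%, against 9.04% of array genes), CCAAT in 20 (43.5%, against 35.5%) and TATAAA in 2 (4.35%, against 7.30%). These matches describe letters in a window and were not tested. Median GC content was 61% for the helicases and 64% for array genes.

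Promoters of 3 helicases are printed because their mRNAs fell in different patterns: DDX42 with both siRNAs, DDX54 with siLRH-1 #2 and DHX15 with siLRH-1 #1. They run from 250 bases before the start to the base before it, in the direction of transcription, with AGGTCA and CCGGAAG (or its reverse complement CTTCCGG) in capitals. The DDX42 window is chr17:63773920-63774169 on the plus strand, the DDX54 window is chr12:113185479-113185728 on the minus strand, and the DHX15 window is chr4:24584555-24584804 on the minus strand.
DDX42: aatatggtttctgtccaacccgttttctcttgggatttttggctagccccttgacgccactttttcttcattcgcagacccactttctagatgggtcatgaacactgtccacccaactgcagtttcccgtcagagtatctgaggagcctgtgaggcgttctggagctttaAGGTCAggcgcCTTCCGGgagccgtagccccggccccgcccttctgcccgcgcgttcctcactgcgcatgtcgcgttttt
DDX54: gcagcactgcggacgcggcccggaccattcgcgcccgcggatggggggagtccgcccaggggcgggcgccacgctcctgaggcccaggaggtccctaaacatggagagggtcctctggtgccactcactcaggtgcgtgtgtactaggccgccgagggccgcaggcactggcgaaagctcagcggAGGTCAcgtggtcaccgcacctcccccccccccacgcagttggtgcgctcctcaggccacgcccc
DHX15: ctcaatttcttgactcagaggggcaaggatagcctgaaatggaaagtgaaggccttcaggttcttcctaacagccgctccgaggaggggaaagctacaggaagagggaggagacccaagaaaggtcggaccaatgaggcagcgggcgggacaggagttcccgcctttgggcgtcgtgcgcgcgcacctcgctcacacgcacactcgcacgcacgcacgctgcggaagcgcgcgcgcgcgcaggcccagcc
The half-site began 80 bases before the start in DDX42 and 65 bases before it in DDX54. DDX42 also held the ETS core on the other strand, from 69 bases before the start. DHX15 held neither motif in this window. Among the 11 called helicases with a promoter, only DDX42 and DDX54 held the half-site. It was absent from DHX38 and DDX23, which also fell with siLRH-1 #2, and from DHX30, which also fell with siLRH-1 #1.

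With siLRH-1 #1, 4 of the 49 helicases fell, DHX15, DDX42, DHX30 and DHX33, and 0 rose at an adjusted p under 0.05 (limma, Benjamini-Hochberg over all probes). Among all 7331 genes, 5.17% fell and 5.05% rose. At an unadjusted p under 0.05, 4 helicases were higher and 6 were lower, against 13.1% and 11.1% of all genes. When only probes above the median probe were tested, 7 were called, DDX3X, DDX10 and DHX37 as higher beside the same 4 that fell, and with the mean of all probes of a gene DDX10 was called higher (0.17, adjusted p = 0.0425). The share of all genes called was not counted in either setting, so these added calls have no baseline. The median change of the 49 was -0.05 on the log2 scale, against 0.01 for all genes, with 18 changes above 0 and 31 below.

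With siLRH-1 #2, 5 helicases fell, DHX33, DDX54, DHX38, DDX42 and DDX23, and 2 rose, DDX3X and DDX59. The shares over all genes were 4.88% lower and 5.14% higher. At an unadjusted p under 0.05, 3 helicases were higher and 13 were lower, against 1037 and 806 of all 7331 genes. The median of the 49 was -0.03, against 0.01 for all genes, with 20 changes above 0 and 29 below. DHX33 and DDX42 fell with both siRNAs, 2 of 49, against 0.859% of all genes that fell with both. At an unadjusted p under 0.05 with both siRNAs, 3 helicases were lower and 1 was higher, DDX3X, against 3.01% and 5.31% of all genes. By adjusted p 0 were higher with both in limma, against 1.84% of all genes. Both comparisons share the siLUC arrays. Every call of the 3 comparisons came with arrays that did not overlap between its groups, a separation that a small p makes likely. Uncalled helicases could also be apart. All arrays lay above siLUC for 3 of the 49 and below for 7 with #1, and for 2 and 10 with #2. Over all 7331 genes these counts were 717 and 643 with #1, and 712 and 596 with #2. No call in any of the 3 comparisons was found for 37 of the 49 helicases. The other 12 had at least 1 call, as did 22.4% of all genes.

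**Figure D1:**
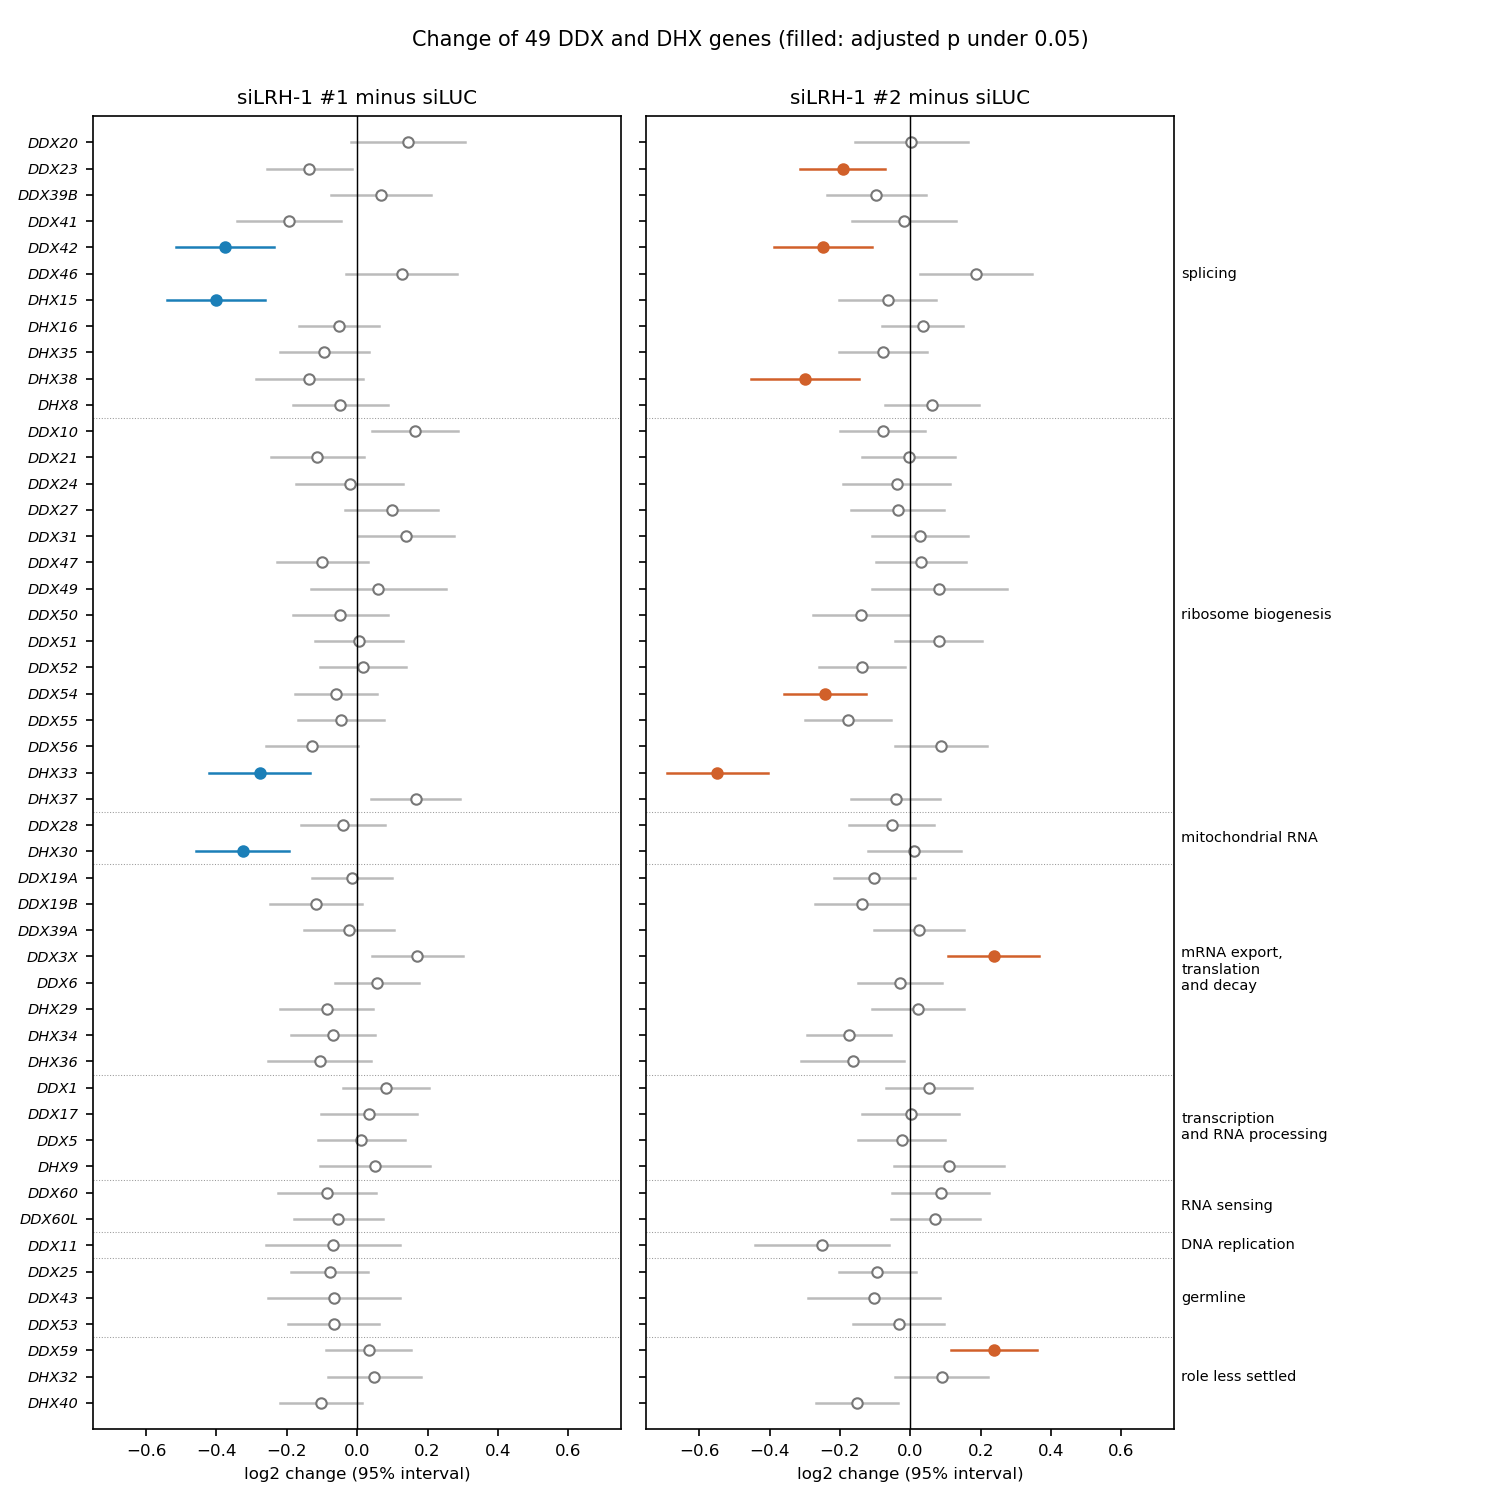
Log2 changes of the 49 helicases against siLUC, grouped by role, with siLRH-1 #1 and siLRH-1 #2 in separate panels and bars for the 95% confidence interval of the limma fit. Filled points passed an adjusted p of 0.05, and the farthest to the left is DHX33 with siLRH-1 #2 at -0.55.

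Among the 11 splicing helicases, 2 fell with siLRH-1 #1 and 3 with siLRH-1 #2. DHX15 takes apart spent spliceosomes together with a G-patch partner. Its siLUC arrays read 12.79, 12.64, 12.54 and 12.70, its siLRH-1 #1 arrays 12.14, 12.37, 12.31 and 12.24, and its siLRH-1 #2 arrays 12.59, 12.52, 12.62 and 12.68. All siLRH-1 #1 arrays were below every other array. A 1.32-fold lower level of DHX15 was found with siLRH-1 #1 (log2 difference -0.40, adjusted p = 0.000396, SE 0.07), and with siLRH-1 #2 the difference was -0.06 (adjusted p = 0.665). It was also lower with #1 than with #2 (-0.34, adjusted p = 0.00146). A second, dimmer DHX15 probe gave -0.31 (adjusted p = 0.00593), 0.01 (adjusted p = 0.975) and -0.31 (adjusted p = 0.00337) for the same comparisons.

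DDX42 is an SF3b-associated helicase that acts early in spliceosome assembly. It read 9.90, 10.00, 9.95 and 10.05 with siLUC, 9.56, 9.78, 9.58 and 9.47 with siLRH-1 #1, and 9.77, 9.78, 9.62 and 9.72 with siLRH-1 #2. Both LRH-1 groups lay below all siLUC arrays, and they overlapped each other. It fell 1.30-fold with #1 (-0.38, SE 0.07, adjusted p = 0.000773) and 1.19-fold with #2 (-0.25, adjusted p = 0.0263), and #1 less #2 came to -0.13 (95% confidence interval -0.27 to 0.01, adjusted p = 0.277). The #2 call did not hold without siLUC replicate 2 (adjusted p = 0.0688), 3 (0.0507) or 4 (0.0813), or without #2 replicate 3 (0.0874) or 4 (0.0543), or without moderation of the spread (0.0649).

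DHX38, the human counterpart of yeast Prp16, drives a remodelling step before exon ligation. It read 7.55, 7.37, 7.40 and 7.46 with siLUC, 7.45, 7.23, 7.36 and 7.20 with #1, and 7.01, 7.27, 7.26 and 7.04 with #2. The #2 arrays were all below the siLUC arrays, while the #1 arrays overlapped both. It fell 1.23-fold with #2 (-0.30, SE 0.07, adjusted p = 0.0136), a call that was lost without siLUC replicate 1 (adjusted p = 0.0531) or #2 replicate 1 (0.0621) or 4 (0.0512) or without moderation of the spread (0.0670), and the change with #1 was -0.14 (adjusted p = 0.343).

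DDX23, a component of the U5 snRNP, gave the call nearest to the threshold. Its siLUC arrays read 9.23, 9.13, 9.08 and 9.21, its #1 arrays 8.97, 9.09, 9.00 and 9.05, and its #2 arrays 8.91, 8.96, 9.05 and 8.97. The #2 arrays were below all siLUC arrays, and the #1 arrays overlapped both groups. It fell 1.14-fold with #2 (-0.19, SE 0.06, adjusted p = 0.0498). This call was lost in 10 of the 12 fits that left out an array, with siLUC replicate 3 and #2 replicate 3 as the arrays it did not need, over a range of 0.0425 to 0.138, and when siLRH-1 #1 was left out of the fit (0.0739). With #1 the change was -0.14 (adjusted p = 0.202). The other 7 splicing helicases had changes of -0.19 to 0.14 with #1 and -0.10 to 0.19 with #2. They included DDX41 (-0.19, adjusted p = 0.119, and -0.02), which passed with #1 without siLUC replicate 3 (-0.26, adjusted p = 0.0314) or #1 replicate 2 (-0.25, adjusted p = 0.0452), and the U2 snRNP recruiter DDX46 (0.13 and 0.19, adjusted p = 0.163 for the latter).

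The 15 helicases of ribosome biogenesis form the largest role group, and 1 fell with #1 and 2 with #2. DHX33 acts in the nucleolus in the synthesis of ribosomal RNA. It read 8.66, 8.59, 8.57 and 8.65 with siLUC, 8.26, 8.19, 8.54 and 8.38 with #1, and 8.09, 8.16, 8.01 and 8.02 with #2. The 3 groups did not overlap, with siLUC highest and #2 lowest. DHX33 fell 1.21-fold with #1 (-0.28, SE 0.07, adjusted p = 0.0151) and 1.46-fold with #2 (-0.55, adjusted p = 1.54e-05), and was 1.21-fold higher with #1 than with #2 (0.27, adjusted p = 0.0117). The #1 call was lost without #1 replicate 1 (adjusted p = 0.0548) or 2 (0.0615) or without moderation of the spread (0.0586), and the call between the siRNAs without #1 replicate 3 (0.0573). The #2 call was kept in all 20 alternatives.

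DDX54, a nucleolar protein that also binds nuclear receptors, read 7.93, 7.95, 7.86 and 7.86 with siLUC. It read 7.81, 7.87, 7.80 and 7.88 with #1, and 7.66, 7.59, 7.70 and 7.68 with #2. All #2 arrays were below the other 8, and the siLUC and #1 arrays overlapped. It fell 1.18-fold with #2 (-0.24, SE 0.06, adjusted p = 0.00836), kept in all 20 alternatives, against -0.06 with #1 (adjusted p = 0.640). Between the siRNAs it was 1.14-fold higher with #1 (0.18, adjusted p = 0.0392), a call lost without #1 replicate 1 (0.0551), 2 (0.0865), 3 (0.0508) or 4 (0.120) or #2 replicate 1 (0.0825), 2 (0.112) or 4 (0.0611) or without siLUC in the fit (0.0620).

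Over all probes, DDX10, DHX37 and DDX56 passed in the direct comparison of the siRNAs and not against siLUC, although DDX10 and DHX37 passed with #1 among brighter probes as given above. DDX10 has a yeast counterpart, Dbp4, in the small subunit processome. It read 10.74, 10.83, 10.85 and 10.77 with siLUC, 10.94, 10.94, 10.92 and 11.06 with #1, and 10.76, 10.62, 10.75 and 10.74 with #2. The #1 arrays were above all others, and it was 1.18-fold higher with #1 than with #2 (0.24, SE 0.06, adjusted p = 0.00803), kept in all 20 alternatives. Against siLUC the changes were 0.17 (adjusted p = 0.105) and -0.08 (adjusted p = 0.509).

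DHX37, which releases U3 snoRNA from the small subunit precursor, read 9.35, 9.28, 9.33 and 9.23 with siLUC. It read 9.45, 9.37, 9.53 and 9.50 with #1, and 9.18, 9.37, 9.21 and 9.25 with #2. The #1 and #2 groups did not overlap, but their nearest arrays both rounded to 9.37. The difference was 0.21 (adjusted p = 0.0291), and it was lost without #1 replicate 1 (0.0555), 3 (0.0909) or 4 (0.0872) or #2 replicate 1 (0.101), 3 (0.0743) or 4 (0.0641). A second, dim DHX37 probe gave -0.10 (adjusted p = 0.380), and the mean of both probes 0.05 (adjusted p = 0.561).

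DDX56, a nucleolar helicase of the large subunit pathway, moved in the other direction. It read 10.60, 10.61, 10.67 and 10.79 with siLUC, 10.46, 10.59, 10.51 and 10.60 with #1, and 10.81, 10.67, 10.70 and 10.84 with #2. The #1 arrays were below all others, while #2 overlapped siLUC. The highest #1 array and the lowest siLUC array both rounded to 10.60. It was 1.16-fold lower with #1 than with #2 (-0.21, SE 0.06, adjusted p = 0.0311), lost without #1 replicate 1 (0.0986) or 3 (0.0773) or #2 replicate 1 (0.0941) or 4 (0.111). The other 10 of the group had changes of -0.11 to 0.14 with #1 and -0.18 to 0.08 with #2, among them DDX21, which links RNA polymerase I to rRNA processing, at -0.11 and -0.00. DDX55, a large subunit factor, was at -0.18 with #2 (adjusted p = 0.0737) and passed among brighter probes (adjusted p = 0.0293). DDX51 was not called by its brighter probe (0.01 with #1, adjusted p = 0.977), while its dimmer probe was lower with #1 (-0.25, adjusted p = 0.0159).

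Of the 8 helicases of mRNA export, translation and decay, DDX3X passed. DDX3X helps ribosomes scan structured leaders. It read 11.03, 10.94, 10.87 and 11.00 with siLUC, 11.10, 11.02, 11.17 and 11.24 with #1, and 11.21, 11.27, 11.16 and 11.16 with #2. The #2 arrays were all above siLUC, and one #1 array lay within the siLUC range. It rose 1.18-fold with #2 (0.24, SE 0.06, adjusted p = 0.0215), lost without siLUC replicate 2 (0.0567) or 3 (0.0828) or #2 replicate 1 (0.0542) or 2 (0.0655), and the change with #1 was 0.17 (adjusted p = 0.115, 0.0484 among brighter probes). Averaged with a second probe that was near the dim end (mean 5.99), the #2 change was 0.10 (adjusted p = 0.278). The other 7 changed by -0.12 to 0.06 with #1 and -0.17 to 0.03 with #2. They included the close paralogs DDX19A and DDX19B, which free mRNA at the nuclear pore, and whether their probes tell them apart was not tested. DHX34, a factor of nonsense-mediated decay, was at -0.17 with #2 (adjusted p = 0.0741) and passed among brighter probes (adjusted p = 0.0291).

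DHX30 and DDX28 work on mitochondrial RNA and ribosomes. DHX30 read 9.02, 9.02, 8.93 and 9.11 with siLUC, 8.72, 8.75, 8.77 and 8.54 with #1, and 9.04, 9.00, 9.10 and 8.98 with #2. Its #1 arrays were below all 8 others. It fell 1.25-fold with #1 (-0.33, SE 0.06, adjusted p = 0.00186) and lay 1.26-fold lower with #1 than with #2 (-0.34, adjusted p = 0.000844), both kept in all 20 alternatives, and its change with #2 was 0.01 (adjusted p = 0.954). The dimmer DHX30 probe gave -0.20 with #1 (adjusted p = 0.0736) and -0.17 between the siRNAs (adjusted p = 0.114), and neither passed. DDX28 was at -0.04 and -0.05.

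DDX59, tied to ciliary signalling in humans, was put with DHX32 and DHX40 as genes whose RNA role is less settled. It read 8.33, 8.38, 8.41 and 8.45 with siLUC, 8.46, 8.43, 8.42 and 8.39 with #1, and 8.61, 8.52, 8.71 and 8.69 with #2. The #2 arrays were above all others. It rose 1.18-fold with #2 (0.24, SE 0.06, adjusted p = 0.0135), kept in all 20 alternatives, and the change with #1 was 0.03 (adjusted p = 0.840). It was also 1.15-fold lower with #1 than with #2 (-0.21, adjusted p = 0.0255), lost without #1 replicate 3 (0.0540) or 4 (0.0792) or #2 replicate 3 (0.0828) or 4 (0.0827). DHX40 was at -0.10 and -0.15 (adjusted p = 0.115 for the latter, 0.0488 among brighter probes).

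**Figure D2:**
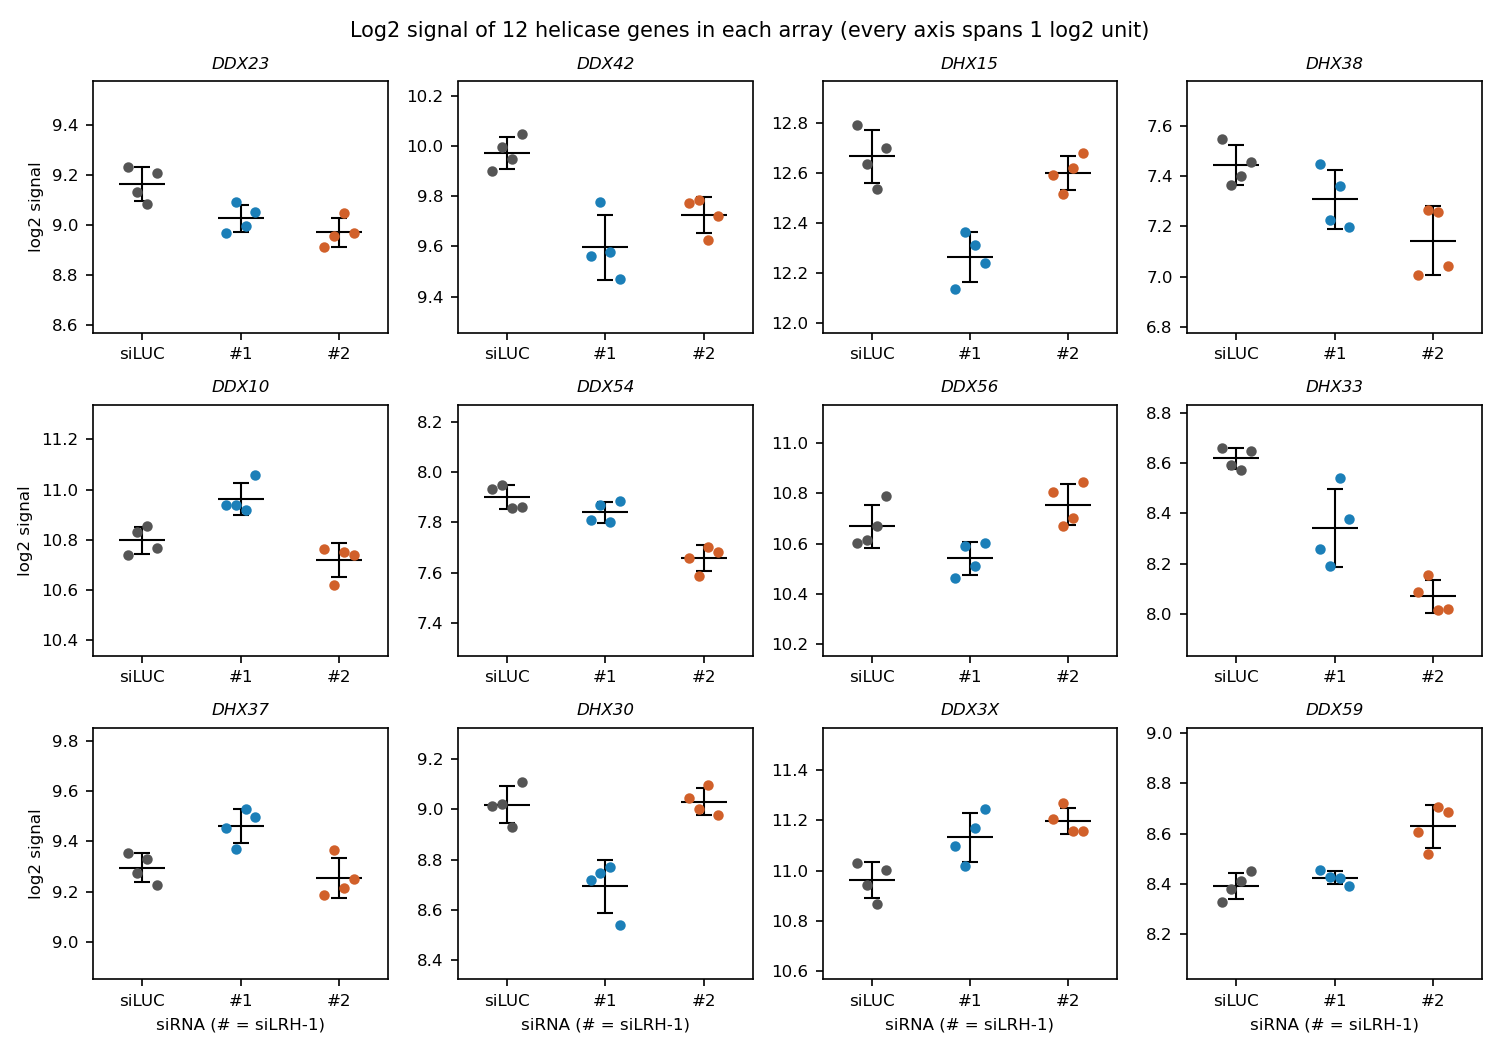
Log2 signal on each of the 12 arrays for the 12 helicases called in at least 1 comparison, with points for arrays, long lines for group means, bars for SD (n = 4) and every axis spanning 1 log2 unit. DHX15 and DHX30 are low with siLRH-1 #1, DDX54 and DHX38 with siLRH-1 #2, and DHX33 and DDX42 with both.

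The remaining roles held no call in any of the 3 comparisons by limma. Of their 10 genes 0, 1 and 1 had an unadjusted p under 0.05 with #1, with #2 and between the siRNAs. The shares over all genes were 24.2%, 25.1% and 27.6%. These roles were grouped for holding no call, which favours low counts in advance, so the counts do not show that they were steadier than other genes. The 4 helicases of transcription and RNA processing, DDX5, DDX17, DHX9 and DDX1, act as coregulators of transcription and in splicing, and their changes were 0.01 to 0.08 with #1 and -0.03 to 0.11 with #2. DDX5 averaged 12.30 ± 0.05 (SD, n = 4) with siLUC, 12.32 ± 0.09 with #1 and 12.28 ± 0.05 with #2. Its 95% confidence intervals ran from -0.11 to 0.14 with #1 and from -0.15 to 0.10 with #2. DDX11, a DNA helicase of sister chromatid cohesion, was at -0.07 and -0.25 (adjusted p = 0.109 for the latter, interval -0.44 to -0.06), and without siLUC replicate 3 the latter passed at -0.34 (adjusted p = 0.0298). The RNA-sensing helicases DDX60 and DDX60L were dim and gave -0.09 and -0.05 with #1 and 0.09 and 0.07 with #2. The germline helicases DDX25, DDX43 and DDX53 were below the median probe and gave -0.08 to -0.07 with #1 and -0.10 to -0.03 with #2, where DDX25 passed without moderation of the spread (-0.09, adjusted p = 0.0281).

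**Figure D3:**
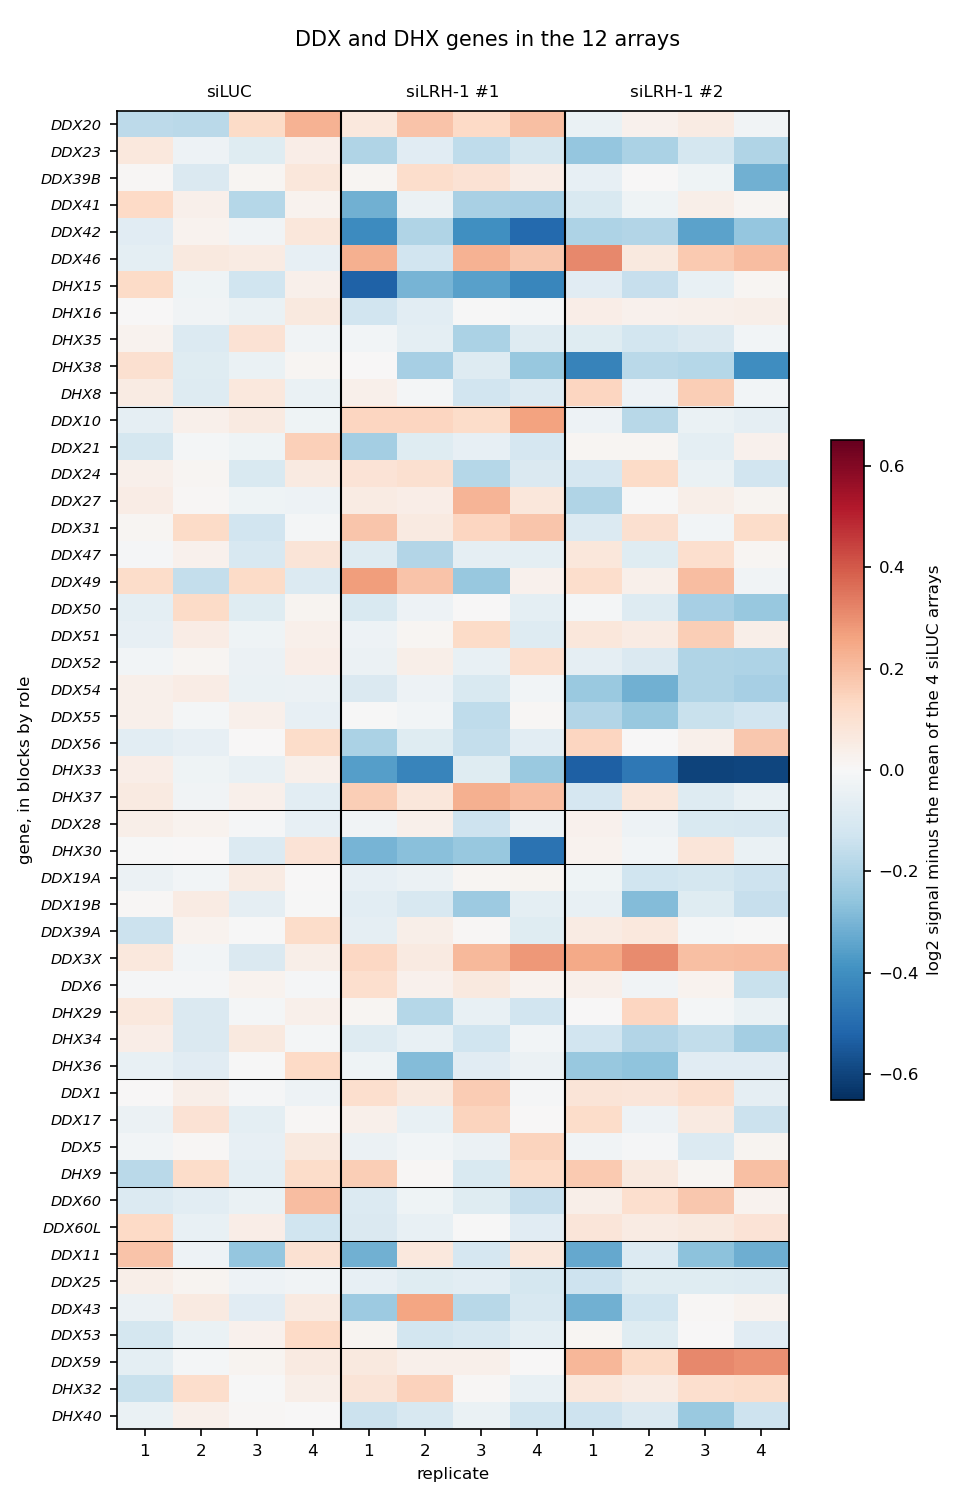
Log2 signal of each of the 49 helicases on each of the 12 arrays, less the gene's own siLUC mean. Rows are genes by role, columns are arrays, and blue is lower and red higher than siLUC. DHX33 is blue on all 4 siLRH-1 #2 arrays, and DHX15 and DHX30 are blue on all 4 siLRH-1 #1 arrays.

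In the direct comparison 4 helicases were higher with #1 than with #2, DHX33, DDX10, DHX37 and DDX54, and 4 were lower, DHX30, DHX15, DDX59 and DDX56. Among all genes 6.97% were higher and 7.73% lower, 14.7% in all. The 15 ribosome biogenesis helicases held 5 of the 8, the 4 higher ones and DDX56, and whether this role differs from the others was not tested. Leaving out 1 array at a time gave 3 to 8 calls here, with 1 to 4 higher, 3 to 5 for #1 against siLUC and 4 to 6 for #2 against siLUC. Calls over all genes were not counted without an array.

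**Figure D4:**
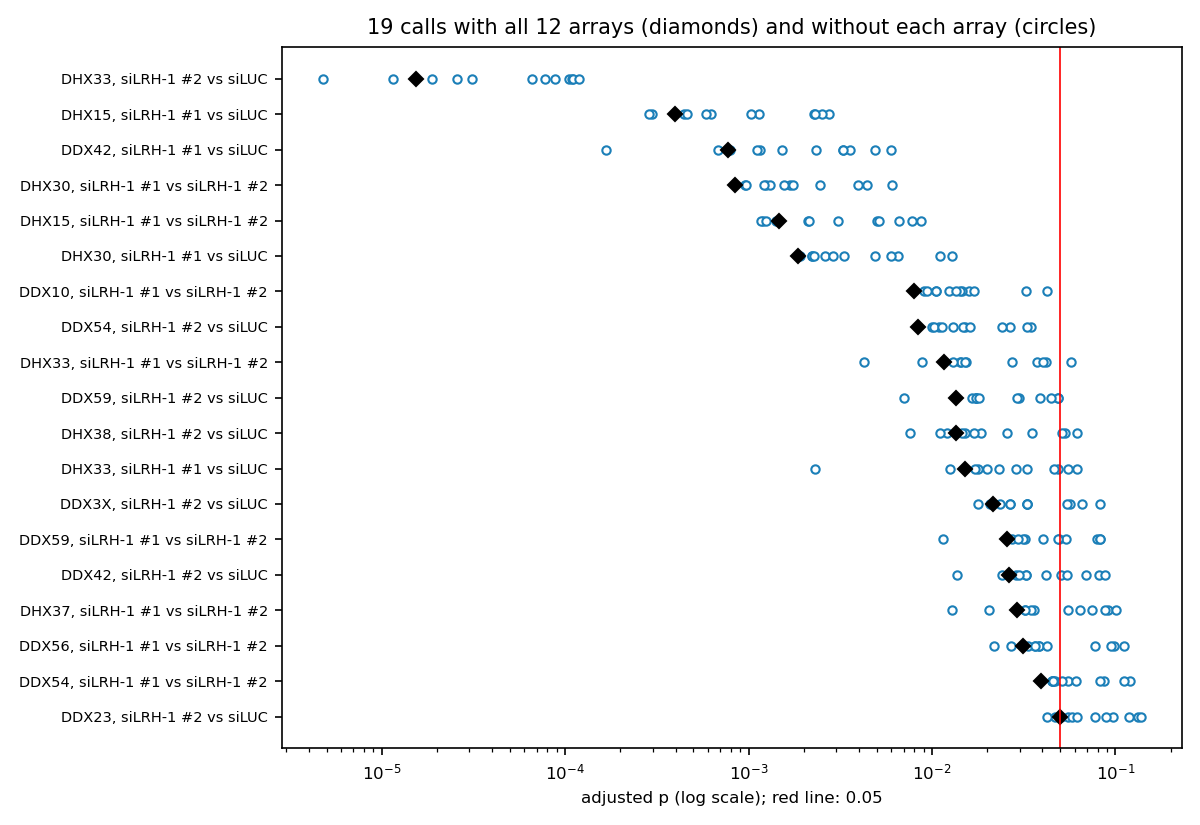
Adjusted p (log axis) of each of the 19 calls in the 3 comparisons, with a diamond for the fit on all 12 arrays, a circle for each fit without 1 array, and a red line at 0.05. DHX33 with siLRH-1 #2 lies farthest to the left at 1.54e-05, and DDX23 with siLRH-1 #2 lies at the line at 0.0498 with most of its circles beyond it.

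Genes that work beside these enzymes were counted from lists by function. A listed gene counts as measured if it had a named probe, and lacking one does not show that it was silent. These counts stand against 5.05% of all genes higher and 5.17% lower with #1, and 5.14% and 4.88% with #2. Of 24 helicases with other symbols, 11 were measured, with 1 higher and 1 lower with #1 and 2 higher and 1 lower with #2. DICER1, which cuts microRNA precursors, rose with both (0.39, adjusted p = 0.000387, and 0.61, adjusted p = 1.62e-06). EIF4A2, a DEAD box protein of translation initiation, fell with #2 (-0.31, adjusted p = 0.00274) and was 0.09 with #1, and the siRNAs differed by 0.39 (adjusted p = 0.000123). The double-stranded RNA sensor IFIH1 rose with #2 (0.33, adjusted p = 0.00218). HELZ fell with #1 (-0.23, adjusted p = 0.0362), a call lost without siLUC replicate 1 (0.124), 3 (0.0685) or 4 (0.0907) or #1 replicate 1 (0.0613), 2 (0.129) or 4 (0.0971), or without moderation of the spread (0.0828).

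Of 42 helicase cofactors, 25 were measured, with 1 higher and 2 lower with #1 and 1 higher and 1 lower with #2. GLE1, which activates DDX19 at the nuclear pore, fell with #1 (-0.63, adjusted p = 4.55e-06) and lay at 0.01 with #2. Ribosome biogenesis factors without a helicase domain numbered 22 measured of 97 listed, with 1 lower with #1 and 2 lower with #2, and the small subunit factor UTP4 fell with both (-0.25, adjusted p = 0.00565, and -0.24, adjusted p = 0.00777). Of 54 exosome and mRNA decay genes 31 were measured, with 2 higher and 3 lower with #1 and 1 higher and 4 lower with #2. The decapping enzyme DCP2 rose with both (0.51, adjusted p = 1.03e-05, and 0.78, adjusted p = 2.91e-08). CNOT11, a subunit of the CCR4-NOT deadenylase, fell with #1 (-1.04, adjusted p = 7.04e-08) and was at -0.01 with #2, and the exosome core subunit EXOSC3 fell with #1 (-0.71, adjusted p = 9.99e-07) and was at -0.12 with #2. EXOSC6 also fell, but with #2 (-0.35, adjusted p = 0.00119), and was not called with #1 (0.12, adjusted p = 0.319).

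Export genes came to 7 of 32, with 2 higher and 1 lower with #1 and 1 higher with #2, and antiviral interferon-stimulated genes to 18 of 40, with 1 higher and 1 lower with #1 and 2 higher and 2 lower with #2. Of 59 spliceosome factors 8 were measured and 0 passed in limma in any comparison, with 3, 0 and 1 at an unadjusted p under 0.05 for #1, #2 and the direct comparison. GLE1, IFIH1, EDC3 and CNOT1 were each on 2 lists, so the calls of GLE1 with #1 and of IFIH1 and EDC3 with #2 were counted in both, and all counts rest on the same 12 arrays. The median changes were -0.03 to 0.07 with #1 and -0.06 to 0.07 with #2 over the 7 lists, against 0.01 for all genes with each siRNA.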

How the data were processed

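RNA from HT29 cells (12 samples, 3 groups of 4) was hybridised to Illumina HumanHT-12 beadchips. The authors deposited log2 values after removing probes detected in no sample and quantile normalisation, and the submitters' processing notes name GenomeStudio and Partek. A second deposited table of signals was left out because its 24 value columns are numbered in a way that could not be tied to samples. Quantile normalisation sets all arrays to 1 distribution, so a shift common to most genes would not be seen. The number of arrays, 4 per group, limits the precision.

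The value table held 16381 probes, of which 9756 had 1 gene symbol in the platform annotation, 4 had several and 6621 had none. RefSeq matched 9746, and 0 symbols were updated. A marker or list gene without a named probe may lie among the 6621, so its absence does not show that it was not expressed. The arrays held 0 identical pairs. A linear model with 1 mean for each group was fitted by limma 3.58.1 (R 4.3.3) to all probes and 12 arrays, leaving 9 residual degrees of freedom. Moderated two-sided tests were adjusted by Benjamini-Hochberg across the probes, and calls were made under 0.05. Every adjusted p is from limma unless given as without moderation of the spread (an ordinary linear model), and SE and 95% confidence intervals are from the same fit. Percentages of all genes use the brightest probe of each gene.

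Array values were given for each helicase called in any of the 3 comparisons, and the rest by range and count within a role. From each gene list up to 4 called genes with the smallest adjusted p could be named. DDX51's second probe was named after its values were seen. The helicases, roles and lists were chosen with earlier results of these data known. The alternatives comprised each array left out, only the compared groups, no moderation of the spread, array weights, a trended and robust prior, a replicate block, cyclic loess, probes brighter than the median probe, and the mean over a gene's probes. The script was tested on simulated data. Biological replicates of 1 cell line measure the spread between cultures of that line.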

Additional observations from a re-analysis of the deposited data

Results flagged for a closer look

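All 49 helicases were checked in each group for an array far from the other 3. In 9 of the 147 groups of 4 arrays the gap to the nearest array, as a share of the group's range, was above Dixon's critical value at this group size. Chance flags about 1 in 20 groups. In siLRH-1 #1, DDX10 read 11.06 on replicate 4 against 10.92 to 10.94 on the others, and without this array it was still called between the siRNAs, with siLRH-1 #1 as the higher group. None of the other 8 values belonged to a called helicase. DDX5 read 12.45 on replicate 4 of siLRH-1 #1 against 12.26 to 12.28, and DDX46 read 9.599 on replicate 2 of that group against 9.90 to 9.955. On replicate 3 of siLRH-1 #1, DDX55 read 10.08 against 10.23 to 10.25 and DDX27 read 9.498 against 9.322 to 9.351. With siLRH-1 #2, replicate 1 was low for DDX27, at 9.083 against 9.276 to 9.316, and for DDX25, at 6.031 against 6.082 to 6.089. With siLUC, DDX60 read 6.247 on replicate 4 against 5.959 to 6.007, and DDX6 read 6.348 on replicate 3 against 6.315 to 6.319.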

How the results depend on the processing

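The 19 calls were recomputed under 20 alternatives, and 324 of the 380 were kept, 56 were lost and 0 changed direction. Without moderation of the spread, the helicases called with both siRNAs fell from 2 to 0, and among probes above the median probe those called with siLRH-1 #1 rose from 4 to 7. The shares of all genes called under these alternatives were not counted, so neither shift is particular to the helicases. Leaving out 1 array gave 3 to 5 calls for siLRH-1 #1, 4 to 6 for siLRH-1 #2, 3 to 8 between the siRNAs and 1 to 2 with both siRNAs. Calls over all genes were not counted in these smaller fits. Replicate numbers were shared by the groups, but arrays of the same number deviated together (r over 0.1) in 2 of 12 pairs (r from -0.15 to 0.20). Among pairs of different numbers it was 8 of 36 (r from -0.22 to 0.28). With the replicate block the counts were 4, 6, 6 and 2, and DDX23 with siLRH-1 #2 and DDX54 and DHX37 between the siRNAs were no longer called. Calls over all probes fell too with the block, from 1146 to 1058 with siLRH-1 #1 and from 1146 to 1043 with siLRH-1 #2. Between the siRNAs they fell from 1629 to 1538. Signal over background limits the 7 dim helicases.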
